A study of Mus musculus with 16 samples.

Results

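Cdkn1c, Grb10, Ndn, Mest, Peg3, Plagl1, Dlk1, H19 and Meg3 are 9 imprinted genes of the mouse growth network, and their levels were followed in sorted endothelial cells (ECs) of bone. They were chosen by name. All 9 were among the 38926 gene names of the table of regional ECs and among those of the Lats2 table, whereas 7 of the 9 were among the 21603 genes of the Yap1/Taz lists, in which H19 and Meg3 were not listed. RNA was sequenced in 16 libraries of C57BL/6 background. The 3 mpEC and 3 bmEC libraries were wildtype ECs sorted from the metaphysis, the growing end of the long bone, and from the diaphyseal marrow of 3-week-old Cdh5-mT/nG reporter mice. The 3 control libraries of the Yap1/Taz comparison came from Yap1flx/flx; Wwtr1flx/flx mice at postnatal day 21 that were negative for Cdh5CreERT2, and the 3 libraries labelled Yap1/Taz iΔEC (ECKO) came from mice of the same floxed genotype and age that were positive for it. The 2 Lats2 control and 2 Lats2 iΔEC (cKO) libraries were from 3-week-old Lats2flx/flx mice negative and positive for Cdh5CreERT2. Cdh5CreERT2 is a Cre recombinase that tamoxifen switches on and that the endothelial promoter of Cdh5 drives, and tamoxifen was injected into pups. Yap1 and Taz, the product of Wwtr1, are the coactivators of the Hippo pathway, and the kinase Lats2 restrains them. The methods call the triplicates biological, while the Lats2 groups here hold 2 libraries each, of which the labels do not say whether they came from separate animals, so their p-values measure the spread between these libraries, which may be technical.

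An imprinted gene is transcribed mainly from the allele of 1 parent, because a DNA methylation mark set in the germ line differs between the parental alleles. Many imprinted genes act on growth before and shortly after birth, and a group of them is known to be expressed together in growing tissues and to decline as growth ends. By textbook knowledge, 4 of the 9 genes are expressed from the maternal allele in most tissues (Cdkn1c, Grb10, H19 and Meg3) and 5 from the paternal allele (Ndn, Mest, Peg3, Plagl1 and Dlk1). FPKM, the fragments mapped to a gene divided by its length and the library size, adds the reads of both alleles, so nothing here speaks to imprinting itself.

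The sequences shown are the RefSeq promoter windows (build GRCm38.p6, 250 bases before to 50 bases after a start) of the members that changed in a comparison and had such a window, and that of Peg3. In the windows of Grb10, Mest and Ndn, the CG dinucleotides, at which DNA can be methylated, are in capitals. Methylation was not measured, so these windows are not shown to carry an imprint.
Grb10, chr11:12037371-12037670, minus strand: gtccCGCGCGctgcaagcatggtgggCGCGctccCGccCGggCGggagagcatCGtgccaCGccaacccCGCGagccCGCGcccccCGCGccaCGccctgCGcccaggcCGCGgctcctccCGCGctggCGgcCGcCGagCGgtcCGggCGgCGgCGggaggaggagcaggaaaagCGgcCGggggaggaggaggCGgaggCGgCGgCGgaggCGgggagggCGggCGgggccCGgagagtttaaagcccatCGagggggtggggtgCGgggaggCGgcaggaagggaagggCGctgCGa
Mest, chr6:30737800-30738099, plus strand: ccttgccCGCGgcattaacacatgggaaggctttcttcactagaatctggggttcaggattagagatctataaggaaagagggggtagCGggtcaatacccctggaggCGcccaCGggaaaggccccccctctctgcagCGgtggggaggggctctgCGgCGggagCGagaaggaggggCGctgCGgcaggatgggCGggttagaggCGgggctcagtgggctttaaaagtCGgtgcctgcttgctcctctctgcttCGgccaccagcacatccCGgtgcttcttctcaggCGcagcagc
Ndn, chr7:62348027-62348326, plus strand: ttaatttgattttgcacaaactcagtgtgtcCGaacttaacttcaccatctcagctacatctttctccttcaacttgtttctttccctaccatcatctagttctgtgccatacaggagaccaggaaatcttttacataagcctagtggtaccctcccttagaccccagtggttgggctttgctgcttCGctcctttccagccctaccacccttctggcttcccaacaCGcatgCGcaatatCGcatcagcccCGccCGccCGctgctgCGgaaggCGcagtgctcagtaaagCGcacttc
Peg3, chr7:6730370-6730669, minus strand, with motif letters in capitals: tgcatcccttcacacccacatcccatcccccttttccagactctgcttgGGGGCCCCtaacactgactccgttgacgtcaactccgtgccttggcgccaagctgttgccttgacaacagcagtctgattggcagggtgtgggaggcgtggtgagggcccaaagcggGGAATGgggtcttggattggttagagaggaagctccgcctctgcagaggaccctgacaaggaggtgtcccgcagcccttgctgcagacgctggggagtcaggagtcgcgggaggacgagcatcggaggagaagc
The Grb10 window held 45 CG dinucleotides, more than 98.1% of the 32851 mouse promoter windows, whose median was 7. A second Grb10 start, at chr11:12027922-12028221, held 9. The Mest window shown held 17 and one farther upstream, at chr6:30733256-30733555, held 8. The Peg3 window held 13 and that of Ndn 11. Of all windows, 68.6%, 62.1% and 58.6% held fewer than those shown for Mest, Peg3 and Ndn. For 7 of the 9 genes such windows were found, 11 in all. They were searched on both strands for GGAATG, the core letters bound by TEAD factors (the DNA-binding partners of Yap1 and Taz), for GGGGCCCC, letters of the Plagl1 site, and for TGCCGC, the letters Zfp57 binds when methylated. The letters of the motifs do not overlap in these windows. GGAATG stood in 1 of the 11 windows, that of Peg3, and in 14.7% of all windows. GGGGCCCC also stood 1 time in the Peg3 window, against 1.08% of all windows holding it. TGCCGC stood in 5 of the 11 windows, against 11.6% of all windows. It was found 2 times in each of 2 Mest windows that start 3 bases apart, the shown one among them, and 1 time each in the Grb10 window shown, in 1 of 2 Meg3 windows and in that of Plagl1. A match of letters is a description and not a binding site.

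Mest also carries a microRNA in an intron on the same strand, and its mature arms are given because their host gene changed most among the paternally expressed members. The seed, bases 2 to 8, is in capitals.
mmu-miR-335-5p, chr6:30741314-30741336: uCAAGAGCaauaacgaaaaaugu
mmu-miR-335-3p, chr6:30741354-30741375: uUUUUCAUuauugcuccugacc
The 2 seeds differ, and the level of the microRNA was not measured in these libraries of longer RNA.

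In each library 90.3% to 95.8% of the summed FPKM of the 9 genes came from Mest, Grb10 and Cdkn1c. FPKM is a level per length, so genes of a table can be ranked. In mpECs the order was Mest (33.2 to 45.6 FPKM), Grb10 (24.3 to 34.9), Cdkn1c (14.6 to 19.05), Ndn (3.14 to 4.67) and Peg3 (1.20 to 1.76), and only Mest and Grb10 overlapped. In bmECs it was Mest (30.8 to 38.0), Cdkn1c (25.9 to 32.0), Grb10 (12.3 to 18.7), Ndn (6.69 to 7.36) and Peg3 (0.440 to 0.659), with an overlap between Mest and Cdkn1c. Plagl1, Dlk1, H19 and Meg3 were under 0.5 FPKM in all 6 libraries. In the Yap1/Taz controls Cdkn1c (22.3 to 31.2 FPKM) came first, above Grb10 (9.47 to 10.3), Mest (6.49 to 10.7), Ndn (1.66 to 3.61) and Peg3 (0.388 to 0.823), where Grb10 and Mest overlapped. In the Lats2 controls Cdkn1c was also first (126 and 168 FPKM), followed by Mest, Grb10, Ndn and Peg3, none of which overlapped. The 3 tables were normalized separately, and no level was compared between them.

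**Figure D1:**
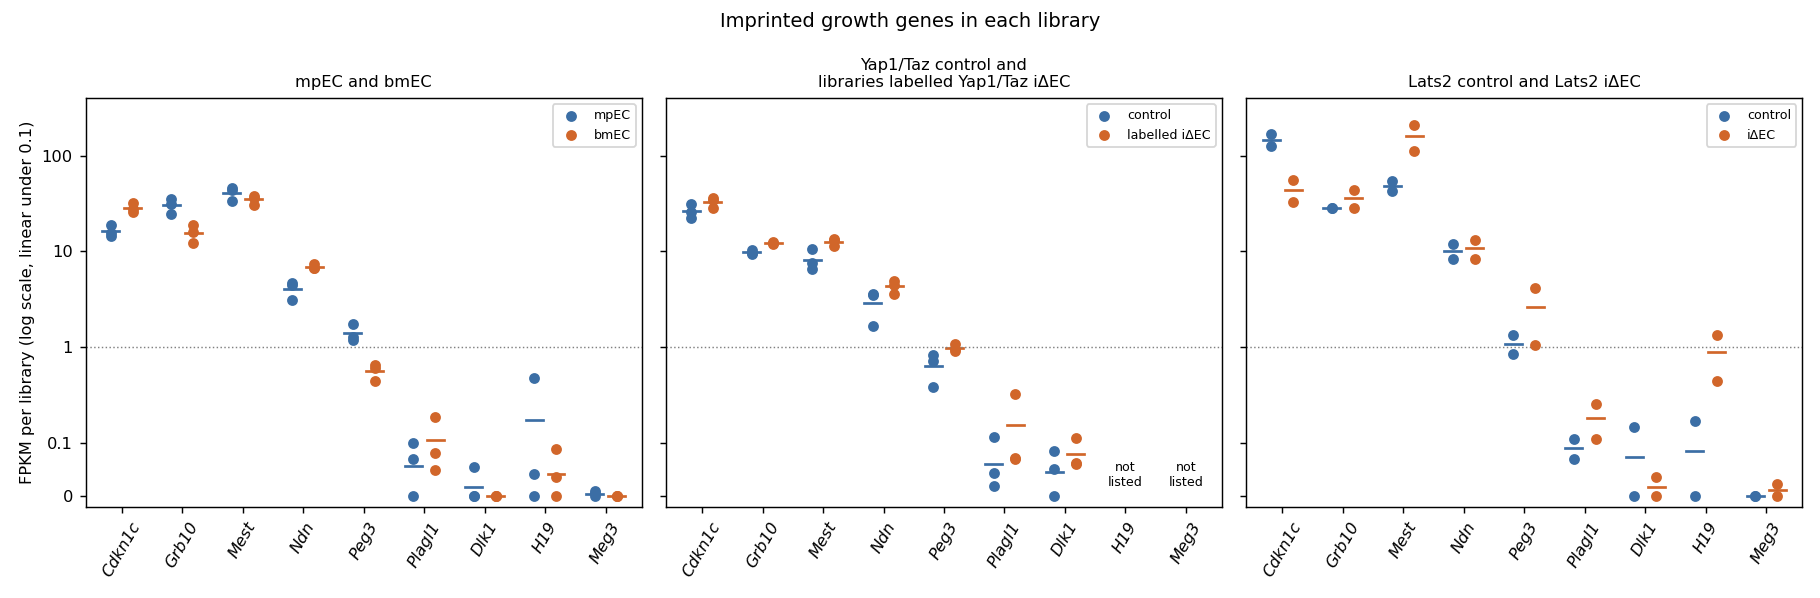
FPKM of the 9 imprinted genes in each library, on a log axis that is linear under 0.1, with a panel for each table, points for libraries and bars for group means. The dotted line marks 1 FPKM, the mean that a gene needed to be tested, and Plagl1, Dlk1 and Meg3 stay under it in every library.

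Facts of the libraries bear on these values. Reads recovered from the FPKM values numbered 11112819 to 14741400 per library for mpECs and bmECs, 4885851 to 7166542 for Yap1/Taz and 4730058 to 7067401 for Lats2. The endothelial marker list (Pecam1, Cdh5, Kdr, Tek, Emcn, Tie1, Erg and Cldn5) was tested in full in each table, so the labelled cell type was present, but erythroid genes summed to 17675 to 37726 FPKM and neutrophil genes to 7794 to 23202 FPKM in mpECs and bmECs. In the libraries labelled Yap1/Taz iΔEC, Wwtr1 went against the label and Yap1 did not differ. The authors report that quantitative PCR found both transcripts reduced in bone ECs of these mutants, and that Yap1 staining was weaker. Wwtr1 was at 10.01, 9.88 and 10.3 FPKM in the controls and at 15.3, 19.6 and 19.5 FPKM in the libraries labelled Yap1/Taz iΔEC. It was thus higher there (log2 fold change 0.78, limma adjusted p = 0.0272), a call that was lost in 6 of 14 alternative fits. Yap1 differed by -0.04 (adjusted p = 0.934). Lats2 was at 23.4 and 24.0 FPKM in its controls and 19.2 in each Lats2 iΔEC library, a log2 fold change of -0.29 with an adjusted p of 0.125. A value per gene adds the exons that Cre leaves in place, so it is a weak check of a deletion. In bulk RNA of sorted cells, fewer cells of a type and less RNA per cell cannot be told apart.

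Between the regions of bone, bmECs had more Cdkn1c and Ndn and less Grb10 than mpECs, and Mest did not pass the test. The 4 genes that averaged 1 FPKM or more were tested with limma on log2(FPKM + 1), and p-values were adjusted over all 11422 genes tested. Of the 4, 3 were called at an adjusted p under 0.05, 2 higher and 1 lower, in a table where 23.5% of genes were called, 13.0% higher and 10.5% lower. For 3 of the 4 the groups did not overlap, as for 41.3% of all genes tested.

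Cdkn1c encodes p57, an inhibitor of cyclin-dependent kinases that holds cells out of the cell cycle, and lies on chromosome 7 of GRCm38 (143458339 to 143461050, minus strand). It was at 15.7, 19.05 and 14.6 FPKM in mpECs and at 25.9, 32.0 and 27.8 FPKM in bmECs. Every bmEC library was above every mpEC library. Limma gave a log2 difference of 0.76 (SE 0.12) at an adjusted p of 0.00352, and the call held in 14 of 14 alternative fits. Of the exon bases of Cdkn1c, 30.7% lie opposite Gm44732, and whether reads were counted by strand is not given in the sources used here.

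Grb10, an adaptor that binds the activated insulin and IGF1 receptors and dampens their signal, lies on chromosome 11 (11930508 to 12038683, minus strand). It went the other way, from 24.3, 31.4 and 34.9 FPKM in mpECs to 12.3, 15.9 and 18.7 FPKM in bmECs. The groups did not overlap. The log2 difference of -0.91 (SE 0.17) had an adjusted p of 0.0078, and it was called in 14 of 14 alternatives. Markers of bone-forming cells moved with it. The osteoblast list was at 596, 315 and 134 summed FPKM in mpEC replicates 1 to 3 and at 42.0 to 53.6 in bmECs. All 6 tested genes had a negative difference (-5.53 to -0.33), and 4 of them were called lower in bmECs. The chondrocyte list was at 18.95 to 22.9 in mpECs and at 0.0116 to 0.252 in bmECs, with 4 of 4 tested genes called lower. The mpEC library with the most osteoblast signal had the least Grb10, and the part of either list in the result was not tested.

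Ndn encodes necdin, a growth suppressor of the MAGE family, on chromosome 7 (62346569 to 62350262, plus strand). It was at 3.14, 4.67 and 4.43 FPKM in mpECs and 7.36, 6.78 and 6.69 FPKM in bmECs, with no overlap. The rise on the log2 scale was 0.66 (SE 0.14) at an adjusted p of 0.0117, and 14 of 14 alternatives kept the call. The macrophage list also stood higher in bmECs, where Cdkn1c and Ndn were higher, at 341 to 445 summed FPKM against 187 to 234 in mpECs, although its called gene was 1 of 5, Mrc1 (1.74, adjusted p = 7.57e-05), and its median difference was -0.23. The pericyte and marrow stroma list was at 60.5 to 80.2 summed FPKM in mpECs and 30.0 to 70.8 in bmECs. Of its 5 tested genes 1 was called higher, Lepr (1.85, adjusted p = 5.07e-05), and 1 was called lower, Lum (-3.25, adjusted p = 0.000885). The endothelial list was at 1249 to 1502 and 1554 to 1692, with 4 of 8 called higher and 3 called lower. The part of these lists in the values of Cdkn1c and Ndn was not tested.

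Mest, also called Peg1, encodes a protein of the endoplasmic reticulum with a hydrolase fold and lies on chromosome 6 (30723547 to 30748465, plus strand). It had 33.2, 43.4 and 45.6 FPKM in mpECs and 36.0, 38.0 and 30.8 FPKM in bmECs. The ranges overlapped, and the difference was -0.21 (95% interval -0.52 to 0.11, adjusted p = 0.312).

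Peg3 encodes a large zinc finger protein and lies on chromosome 7 (6703892 to 6730431, minus strand). Its mean of 0.988 FPKM left it just under the filter, although it rested on an estimated 66 to 227 reads per library. Values were 1.20, 1.27 and 1.76 FPKM in mpECs and 0.602, 0.659 and 0.440 FPKM in bmECs, and each bmEC library was below each mpEC library. In the fit without a filter, in which 5.23% of 21547 genes were called lower, its log2 fold change was -0.62 with an adjusted p of 0.0359. It entered 4 of the alternative fits and was called in 2 of them.

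The 4 remaining members were near the limit of detection. Plagl1 (a zinc finger transcription factor also called Zac1) had 0 to 0.189 FPKM, from at most 13 reads. H19, a noncoding RNA that carries a microRNA, was at 0 in 2 of 6 libraries and at 0.478 FPKM, or 11 reads, in mpEC replicate 3. Dlk1, which encodes a transmembrane ligand of the Notch type, was at 0 in 5 of 6 libraries with 3 reads in mpEC replicate 3. Meg3, the noncoding RNA of the same domain on chromosome 12, was at 0 in 4 of 6 libraries with at most 2 reads. A count of 0 allows up to 3 reads, which is 0.0430 to 0.0644 FPKM for Dlk1 and 0.0134 to 0.0202 FPKM for Meg3. Such limits cover counting error only. Small differences in these 4 genes at such low levels could not be resolved at this depth.

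**Figure D2:**
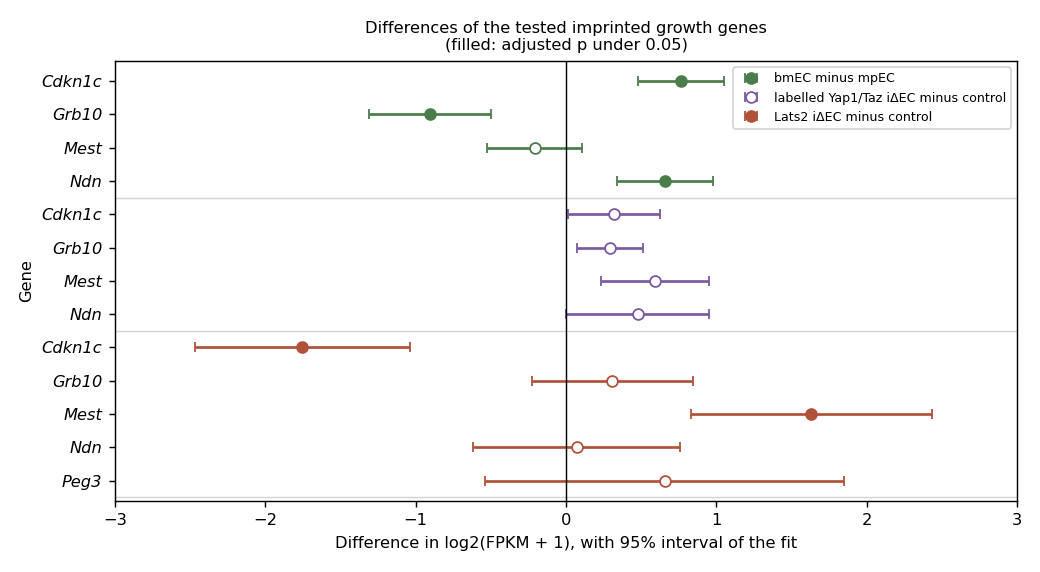
Difference in log2(FPKM + 1) between groups for each tested imprinted gene, with the 95% interval of the limma fit on the horizontal axis and filled points where the adjusted p is under 0.05. Cdkn1c lies at 0.76 in bmECs minus mpECs and at -1.75 in Lats2 iΔEC minus control, and each comparison was fitted in its own table.

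In the Yap1/Taz comparison the 4 tested genes all had higher means in the libraries labelled Yap1/Taz iΔEC, and none was called by limma. There, 1.31% of 11320 genes were called, 0.883% higher and 0.424% lower. At an unadjusted p under 0.05 there were 3 of the 4 genes, against 17.9% of all genes tested. Limma-voom on recovered reads called 1, Mest, higher, in a fit that called 2.47% of all genes higher. The ranges were separate for 3 of the 4, against 23.6% of all genes tested.

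Mest came closest to the threshold. It was at 10.7, 7.49 and 6.49 FPKM in the controls and 11.4, 13.2 and 13.4 FPKM in the libraries labelled Yap1/Taz iΔEC, so that the lowest of the latter stood just above control replicate 1. On the log2 scale it differed by 0.59 (SE 0.16, adjusted p = 0.0974), and by 0.77 without that control (adjusted p = 0.0396). Over all alternatives of Mest the adjusted p ran from 0.0396 to 0.315.

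Grb10 was tight within groups, at 10.3, 9.61 and 9.47 FPKM in the controls and 11.9, 12.6 and 12.1 FPKM in the libraries labelled Yap1/Taz iΔEC. The ranges did not overlap, and the difference of 0.29 (95% interval 0.07 to 0.51) had an adjusted p of 0.159. For Cdkn1c the values were 22.3, 25.7 and 31.2 FPKM against 28.6, 36.1 and 34.1 FPKM, which overlapped. Its difference was 0.32 (adjusted p = 0.263). Ndn had 1.66, 3.61 and 3.52 FPKM against 3.63, 4.87 and 4.47 FPKM (0.48, adjusted p = 0.282), and control replicate 1 stood well under all others. Without that library the Ndn difference was 0.22 (adjusted p = 0.449). Peg3 was under the filter, at 0.388 to 0.823 FPKM against 0.917 to 1.08 FPKM, and without a filter its adjusted p was 0.367. Plagl1 had at most 11 reads and Dlk1 at most 3 in any library.

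Markers of endothelial, bone and B cells moved with these small differences. The osteoblast list was at 36.0 to 50.4 summed FPKM in the controls and 10.7 to 24.0 in the libraries labelled Yap1/Taz iΔEC. Of its 5 tested genes 2 were called lower. The endothelial list was at 468 to 494 and 613 to 721. All 8 of its genes had a positive difference (0.16 to 1.09, median 0.36), and limma called 1 higher. At an unadjusted p under 0.05 there were 7 of the 8, against 17.9% of all genes tested. Limma-voom called 3 higher, in a fit that called 2.47% of all genes higher. The B cell list was at 253 to 304 and 212 to 217. None of its 6 genes was called, though all differences were negative (-0.71 to -0.32) and 5 had an unadjusted p under 0.05 in limma. Erythroid genes summed to 3354 to 4078 FPKM in the controls and 3330 to 5016 in the libraries labelled Yap1/Taz iΔEC, and neutrophil genes to 1910 to 2503 and 1516 to 3576. The part of these lists in the values of the imprinted genes was not tested.

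In Lats2 iΔEC, Cdkn1c fell and Mest rose, each by more than 3-fold in mean FPKM, while Grb10, Ndn and Peg3 did not pass the test. Of the 5 tested genes 2 were called, 1 higher and 1 lower, in a table where 21.8% of 12453 genes were called, 11.8% higher and 9.98% lower. Ranges were separate for 3 of the 5, and for 68.2% of all genes tested.

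Cdkn1c was at 168 and 126 FPKM in the controls and 55.3 and 32.6 FPKM in Lats2 iΔEC. Both mutant libraries were below both controls. The mean was 0.299 of the control mean, and the fitted difference of -1.75 (SE 0.28) had an adjusted p of 0.0174. With 2 libraries a group, a fit without 1 of them has a lone library on that side. The difference was -1.55 without control replicate 1, -1.96 without control replicate 2, -2.13 without iΔEC replicate 1 and -1.38 without iΔEC replicate 2. The call was lost in each of these fits except that without iΔEC replicate 1.

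Mest was at 54.9 and 42.3 FPKM in the controls and 206 and 111 FPKM in Lats2 iΔEC, a mean 3.26 times that of the controls. The mutant libraries were both above the controls and far from each other. Its fitted difference was 1.63 on the log2 scale (SE 0.32, adjusted p = 0.0254). It was 1.18 to 2.08 with single libraries left out, and the adjusted p was 0.151 without control replicate 1, 0.186 without control replicate 2 and 0.0607 without a filter. The neighbour Copg2, which encodes a subunit of the COPI vesicle coat and is transcribed toward Mest from the other strand, rose too. It went from 19.2 and 22.0 FPKM to 41.5 and 58.2 FPKM (log2 fold change 1.22, adjusted p = 0.0166). Of the exon bases of Mest, 23.1% lie opposite Copg2, so that, with the strand setting unknown, reads of this stretch cannot be told apart. Cep41, on the other side of Mest, was at 1.90 and 2.33 FPKM and then 2.30 and 2.45 FPKM (adjusted p = 0.688).

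Grb10 had 28.2 and 28.4 FPKM in the controls and 43.4 and 28.6 FPKM in Lats2 iΔEC, so that 1 mutant library matched the controls. Its difference was 0.31 (95% interval -0.23 to 0.84, adjusted p = 0.337). Ndn overlapped, at 12.0 and 8.24 FPKM against 8.34 and 13.3 FPKM (0.07, adjusted p = 0.866), and the sign turned when control replicate 2 or iΔEC replicate 2 was left out. Peg3 was at 0.845 and 1.33 FPKM against 4.18 and 1.06 FPKM. The fitted 0.66 (adjusted p = 0.356) came from iΔEC replicate 1, without which it was -0.01. H19 was counted with 2 and 0 reads in the controls and 4 and 16 reads in Lats2 iΔEC, or 0.169, 0, 0.447 and 1.35 FPKM, and its mean was under the filter. Plagl1 had at most 7 reads, Dlk1 at most 5 and Meg3 at most 2.

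Markers of blood and of stroma differed between these libraries. The erythroid list was at 1870 to 2573 summed FPKM in the controls and 146 to 1073 in Lats2 iΔEC. All 6 tested genes had a negative difference (-3.19 to -2.30), and 2 of them were called lower. The neutrophil list was at 1478 to 2223 and 564 to 701, with all 6 differences negative (-3.07 to -1.40) and 4 called lower. The B cell list was at 88.7 to 102 and 27.3 to 32.8, with 5 of 6 called lower. The pericyte and marrow stroma list was higher, at 33.0 to 40.2 and 62.7 to 73.3, with 3 of 5 tested genes called higher. The macrophage list summed to 214 to 220 and 51.9 to 103, although its called gene was 1 of 5, Mrc1 (-2.95, adjusted p = 0.00986). Its differences ran up to 1.46, with a median of -0.07. The endothelial list was at 1998 to 2161 and 1573 to 1873, with 1 of 8 called higher and 2 called lower. Osteoblast markers were at 74.2 and 10.3 in the controls. The part of these lists in the change of Cdkn1c or Mest was not tested.

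**Figure D3:**
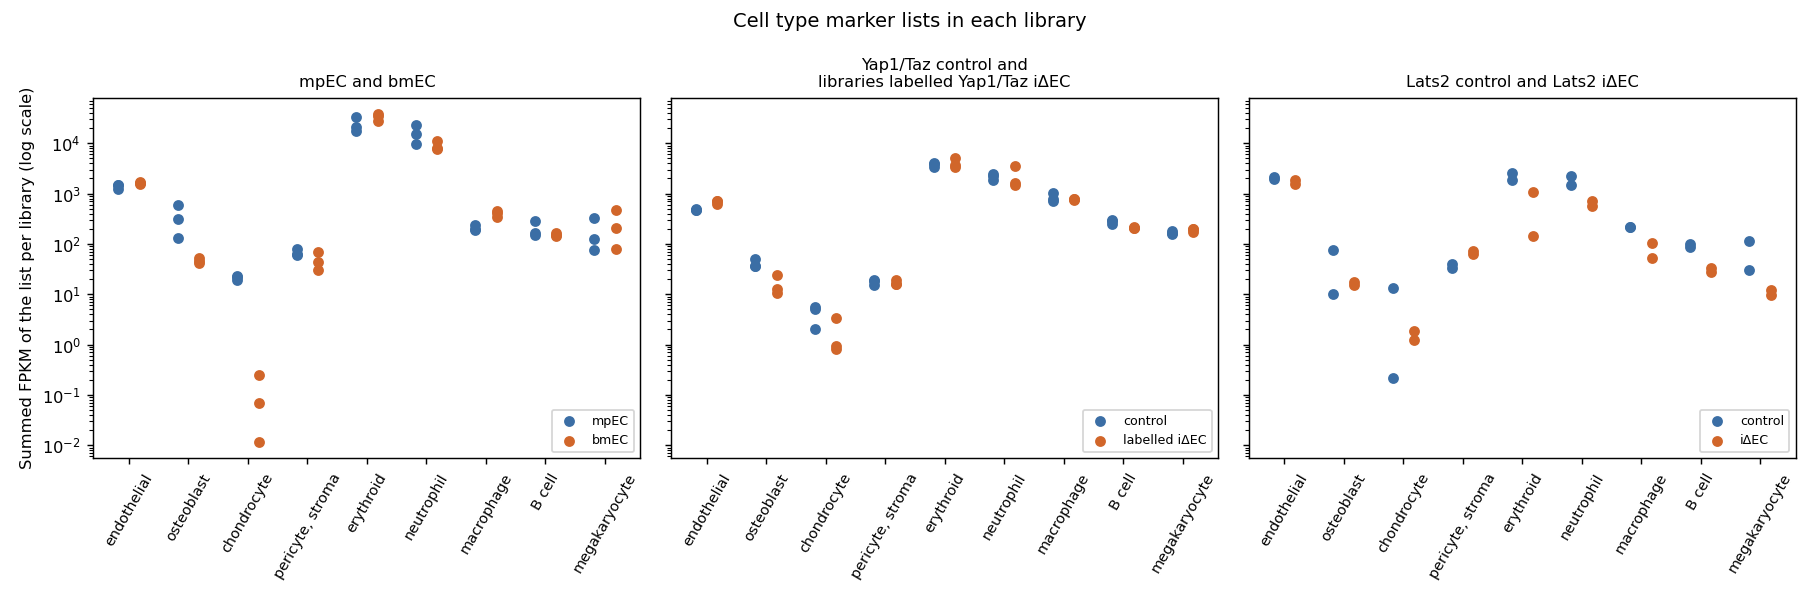
Summed FPKM of 9 cell type marker lists in each library, on a log axis, with a panel for each table. The chondrocyte list sits between 18.95 and 22.9 FPKM in mpECs and at most at 0.252 in bmECs. The sums of the blood lists are lower in Lats2 iΔEC than in its controls, though not every gene of a list is.

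Cdkn1c was thus higher in bmECs, lower in Lats2 iΔEC and without a call in the libraries labelled Yap1/Taz iΔEC, and the differences between these effects were not tested.

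Genes next to the members were called in both directions. In bmECs against mpECs, 1 of 2 tested neighbours of Cdkn1c and 1 of 2 of Grb10 were called lower and 1 of 2 of Mest was called higher. Of all genes tested, 10.5% were called lower and 13.0% higher. None was called of 2 beside H19, 3 beside Plagl1 and 4 beside Ndn by limma or limma-voom (none of these had an unadjusted p under 0.05 in limma), and none was tested beside Peg3, Dlk1 or Meg3. Of the neighbours of Cdkn1c, Kcnq1, a potassium channel gene through which the antisense RNA Kcnq1ot1 runs, fell from 10.2 to 12.7 FPKM in mpECs to 6.63 to 8.08 FPKM in bmECs (-0.63, adjusted p = 0.00715), where Cdkn1c rose. It was higher in the libraries labelled Yap1/Taz iΔEC, at 7.07 to 7.73 FPKM against 3.27 to 4.64 FPKM (0.74, adjusted p = 0.0396). Beside Grb10, the DNA repair gene Fignl1 fell with it in bmECs, from 13.5 to 20.6 FPKM to 8.11 to 10.4 FPKM (-0.74, adjusted p = 0.0142). Ikzf1, a gene of lymphocytes, was lower in Lats2 iΔEC (-1.41, adjusted p = 0.0241), where Grb10 did not pass. Snrpn, a splicing gene of the imprinted domain of Ndn, was at 1.95 and 2.73 FPKM in the Lats2 controls and at 7.72 and 7.73 FPKM in Lats2 iΔEC (1.40, adjusted p = 0.0121). Fuca2 near Plagl1 also rose there (1.71, adjusted p = 0.00986). Among these calls, that of Kcnq1 in bmECs held in 14 of 14 alternatives and was lost in 7 of 14 in the Yap1/Taz table, among them the fit with a replicate block (adjusted p = 0.0721). That of Fignl1 was lost in 1 of 14, without bmEC replicate 2 (adjusted p = 0.0503), and the rise of Cep41 beside Mest in bmECs (0.38, adjusted p = 0.0375) was lost in 8 of 13, all 6 fits with a library left out included (highest adjusted p = 0.119). No call of a named gene in the Lats2 table held without control replicate 1 or control replicate 2. Those of Snrpn and Ikzf1 were also lost without iΔEC replicate 2, at an adjusted p of 0.0555 for each. The genes around Dlk1 and Meg3 were close to 0 in mpECs and bmECs, where Begain, Rtl1, Mirg and Dio3 were listed at 0 and the list of 6 summed to at most 0.416 FPKM. Igf2, the growth factor gene that shares its enhancers with H19, had 0.0525 to 0.184 FPKM in mpECs and 0.490 to 1.29 FPKM in bmECs, under the filter.

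Of 7 other genes of the same imprinted network, the 5 tested in bmECs against mpECs held 1 called higher and 2 called lower, with a median difference of -0.44 beside -0.00068 over all genes. The shares called over all genes were 13.0% higher and 10.5% lower. Gatm, which makes the precursor of creatine, was higher in bmECs, at 117 to 134 FPKM against 80.3 to 85.6 FPKM (0.58, adjusted p = 0.00177). Igf2r, the receptor that clears IGF2, fell from 4.17 to 4.26 FPKM in mpECs to 2.50 to 2.98 FPKM in bmECs (-0.48, adjusted p = 0.0151), and Sgce, a sarcoglycan gene, fell by 0.44 (adjusted p = 0.00712). The Igf2r call was lost in 2 of 13 alternatives, without mpEC replicate 3 (adjusted p = 0.0516) or bmEC replicate 1 (adjusted p = 0.0561). Gatm was also called in the other 2 tables. It was higher in the libraries labelled Yap1/Taz iΔEC (0.58, adjusted p = 0.0423, 1 of 5 tested genes of the list) and lower in Lats2 iΔEC, where it went from 85.8 and 92.8 FPKM to 22.7 and 36.9 FPKM (-1.59, adjusted p = 0.0152). In Lats2 iΔEC, Gnas, which encodes the stimulatory G protein alpha subunit, rose from 158 and 162 FPKM to 226 and 234 FPKM (0.52, adjusted p = 0.0329), so that 1 of 6 was called in each direction. For Yap1/Taz the Gatm call was lost in 8 of 14 alternatives, including the replicate block (adjusted p = 0.0877), no filter (0.0926) and 5 of 6 fits with a library left out, all but that without iΔEC replicate 1 (highest adjusted p = 0.213). The Gnas call was lost in 7 of 12, including quantile normalization (adjusted p = 0.168) and the fit without iΔEC replicate 2 (0.0675). The list medians were 0.11 for Yap1/Taz and 0.05 for Lats2, beside -0.0047 and -0.0033 over all genes. The shares called over all genes were 0.883% higher for Yap1/Taz, and 11.8% higher and 9.98% lower for Lats2.

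Among 46 further imprinted genes, 21 were tested in bmECs against mpECs, with 1 called higher, 4 called lower and a median of 0.03. Of all genes tested, 13.0% were called higher and 10.5% lower. The higher one was Impact, which encodes an inhibitor of the stress kinase GCN2 and was at 5.70 to 6.93 FPKM in mpECs and 9.81 to 11.8 FPKM in bmECs (0.66, adjusted p = 0.00411). The lower ones were Asb4 (-1.04, adjusted p = 0.00566), Tfpi2 (-0.79, adjusted p = 0.0233), Airn (-0.66, adjusted p = 0.0295) and Kcnq1. Airn is the noncoding RNA that runs antisense to Igf2r. The calls of Tfpi2 (5 of 14 alternatives, highest adjusted p = 0.084) and Airn (5 of 13, highest adjusted p = 0.103) were lost without a filter and when replicate 2 or 3 of the mpECs or 1 or 3 of the bmECs was left out, and those of Impact and Asb4 held in all alternatives that tested them. Tfpi2, a protease inhibitor gene, was called higher in the libraries labelled Yap1/Taz iΔEC, at 11.8 to 16.4 FPKM against 5.15 to 7.89 FPKM (0.96, adjusted p = 0.0387), where it and Kcnq1 were the 2 called of 21. Of all genes tested there, 0.883% were called higher. That Tfpi2 call was lost in 6 of 14 alternatives, without a filter, without a trend, and without control replicate 2 or 3 or iΔEC replicate 2 or 3 (highest adjusted p = 0.197). In Lats2 iΔEC the 2 called of 20 were Snrpn and Copg2, both higher, where 11.8% of all genes tested were called higher and 9.98% lower. Of the list, 10 genes were listed at 0 in all libraries of mpECs and bmECs, among them Magel2, Klf14 and Rtl1. The list medians were 0.06 for Yap1/Taz and 0.24 for Lats2.

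Of 15 tested regulators that set or keep imprints, limma called 5 lower and none higher in bmECs. At an unadjusted p under 0.05 there were 7 of the 15, beside 36.1% of all genes. Limma called 10.5% of all genes lower and 13.0% higher. Limma-voom called 1 higher and 6 lower, where it called 13.6% and 10.9% of all genes. Zfp57, which guards imprints at methylated sites, fell from 2.12 to 3.37 FPKM in mpECs to 0.289 to 0.471 FPKM in bmECs (-1.39, adjusted p = 0.000857). Uhrf1 (-0.72, adjusted p = 0.0099) and Dnmt1 (-0.64, adjusted p = 0.0138), which copy methylation after replication, fell as well, as did the de novo enzyme Dnmt3b (-0.50, adjusted p = 0.0428). The Dnmt3b call was lost in 8 of 13 alternatives, without a filter (adjusted p = 0.0935), with quantile normalization (0.0711) and in all 6 fits with a library left out (0.0515 to 0.142), and that of Dnmt1 without mpEC replicate 3 (0.0544). None of 15 was called by limma or limma-voom in the libraries labelled Yap1/Taz iΔEC, with 3 at an unadjusted p under 0.05, beside 17.9% of all genes. In Lats2 iΔEC only Dnmt3a was called, from 7.99 and 8.54 FPKM down to 4.15 and 4.84 FPKM (-0.76, adjusted p = 0.0261), a call also lost without a filter (0.0604) and without iΔEC replicate 2 (0.08). For Lats2, limma called 9.98% of all genes lower. The medians of these regulators were -0.18, -0.18 and -0.22 in the 3 comparisons.

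Of the growth partners, a list of 22 receptors, adaptors and cell cycle genes, 3 of 17 tested were called higher and 5 called lower in bmECs. The shares over all genes tested were 13.0% higher and 10.5% lower. The insulin receptor gene Insr rose from 3.47 to 5.59 FPKM in mpECs to 9.67 to 13.5 FPKM in bmECs (1.08, adjusted p = 0.00419), and Igf1r rose from 3.42 to 4.20 FPKM to 6.31 to 7.93 FPKM (0.80, adjusted p = 0.00268). These are the receptors Grb10 binds. The other gene called higher was Igf1, which encodes a growth factor that binds the IGF1 receptor. It was at 8.42 to 9.97 FPKM and then 11.5 to 13.4 FPKM (0.38, adjusted p = 0.031). Its call was lost in 5 of 14 alternatives, without a filter (0.0521) and without mpEC replicate 2 or 3 or bmEC replicate 1 or 2 (highest adjusted p = 0.11). The cyclin genes Ccne2 (-0.93, adjusted p = 0.000707) and Ccnd1 (-0.62, adjusted p = 0.0424) fell, with Cdk4 (-0.41, adjusted p = 0.00648) and the Notch receptor gene Notch4 (-0.78, adjusted p = 0.00362). The Ccnd1 call was lost in 6 of 14 alternatives, without a filter (adjusted p = 0.102), without a trend (0.058) and when replicate 2 (0.117) or 3 (0.132) of the mpECs or 1 (0.103) or 3 (0.0793) of the bmECs was left out. In the libraries labelled Yap1/Taz iΔEC none of 19 was called by limma, with 5 at an unadjusted p under 0.05 (17.9% over all genes) and 2 higher and 1 lower by limma-voom, where it called 2.47% and 1.03% of all genes. In Lats2 iΔEC 3 of 17 were called higher, as were 11.8% of all genes tested. They were Ccnd1 from 17.5 and 20.9 FPKM to 50.2 and 59.9 FPKM (1.47, adjusted p = 0.00912), Cdkn1a, the gene of the kinase inhibitor p21 (1.29, adjusted p = 0.015), and Maged1 (0.69, adjusted p = 0.0482). The Maged1 call was lost in 7 of 12 alternatives, including quantile normalization (adjusted p = 0.0663) and the fit without iΔEC replicate 2 (0.0936). Cdkn1a was at 29.8 and 32.7 FPKM in the controls and 65.3 and 92.8 FPKM in Lats2 iΔEC. The list medians were 0.06, 0.06 and -0.21. Among the kinase inhibitors, p57 and p21 transcripts thus moved in opposite directions in these 4 libraries.

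**Figure D4:**
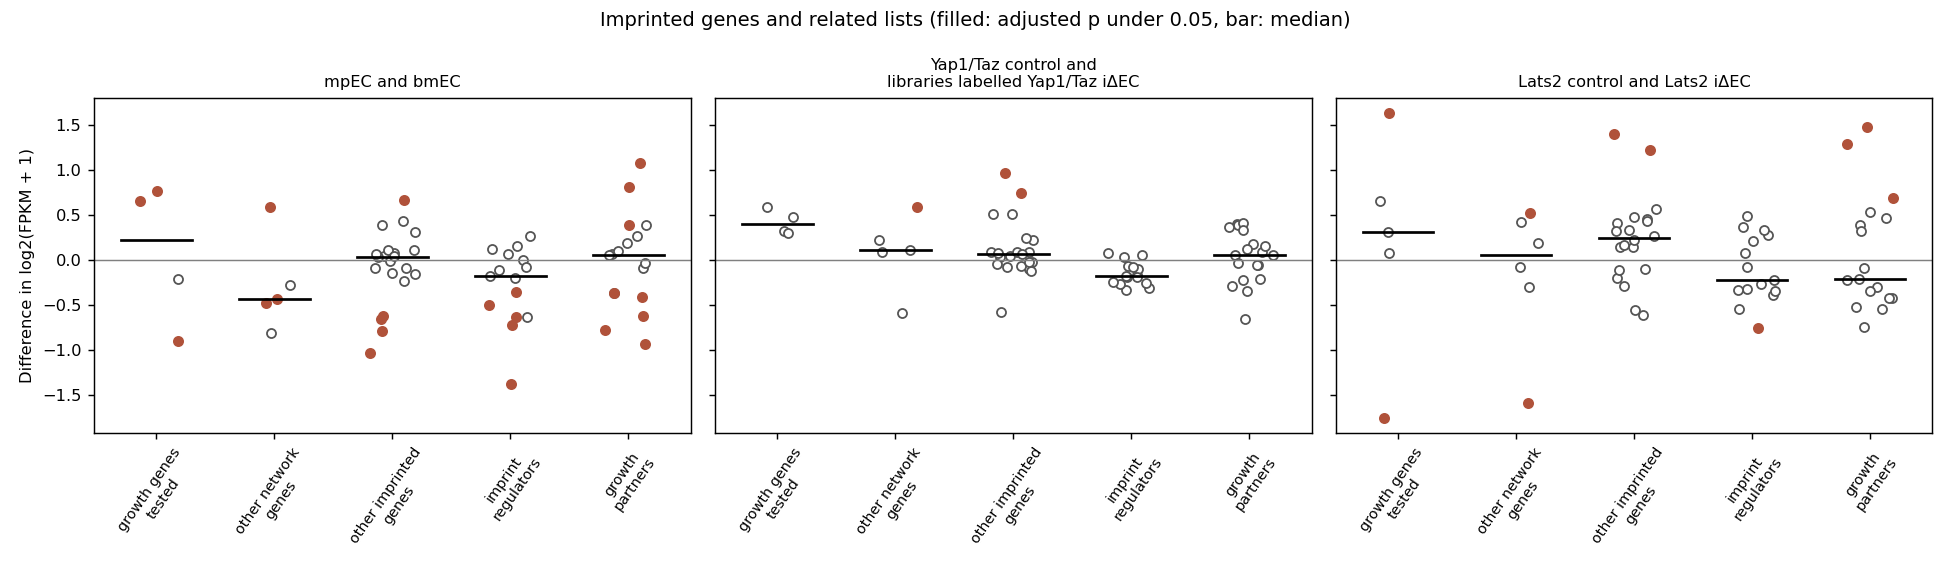
Difference in log2(FPKM + 1) for each tested gene of the imprinted growth genes and of 4 related lists, with filled points at an adjusted p under 0.05 and bars for list medians. Calls are spread over both directions in bmECs minus mpECs and in Lats2 iΔEC minus control, and the 3 called genes for Yap1/Taz lie above 0.

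Over the 6 mpEC and bmEC libraries, the genes whose profile lay nearest to those of Cdkn1c, Grb10 and Ndn were taken by the smallest root mean square difference of log2(FPKM + 1) around the mean. For Cdkn1c they were Zfp667, H6pd and Lrrc8a (0.045 to 0.052), and for Grb10 they were Nrarp, Hspg2 and Jag2 (0.058 to 0.075). Nrarp and Jag2 belong to the Notch pathway, and Hspg2 encodes perlecan of the basement membrane. For Ndn they were Shisa5, Kdr and Tmem140 (0.049 to 0.054), of which Kdr is the main VEGF receptor gene. Likeness was chosen among all genes tested over 6 libraries and is a description.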

How the data were processed

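RNA was sequenced in 16 libraries of FACS-sorted bone ECs. According to the methods, the TruSeq Stranded Total RNA chemistry was used, TopHat placed paired-end reads on mm10 (GRCm38) and HTSeq 0.6.1 gave counts for each gene. The authors deposited FPKM values, and how counts became FPKM, and the annotation and strand setting used, are not given in the sources used here. The authors' own DESeq2 analysis was not used here.

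From the deposited FPKM values, log2(FPKM + 1) was tested with limma 3.58.1 (R 4.3.3, mean-variance trend) for genes that averaged 1 FPKM or more, within each table alone. P-values are two-sided and Benjamini-Hochberg adjusted over all genes tested, and genes are called under 0.05. Fold changes on this scale understate those of low genes. Reads were recovered from FPKM with GENCODE M21 gene lengths. Of values of at most 20 reads, 62.4% to 70.1% in a library were whole to within 0.02 reads (4% by chance), and limma-voom on these reads was added after the data were seen. Without counts, intervals are those of the fit. No replicates were alike within counting noise. Replicate numbers were not taken as pairs in the main fits. The procedure was also run on simulated reads that had the same fixed dispersion between replicates for every gene. That dispersion was not matched to these libraries, so the run does not measure the error of the fits here.

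The 9 genes and all lists were chosen with earlier results of these data known. Named were all members, the targeted genes, neighbours of members, and per list and direction up to 4 called genes with the largest change. The genes nearest in profile to Mest are not reported here. Python 3.11.15, pandas 2.3.3, numpy 2.4.6 and matplotlib 3.10.9 were used.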

Additional observations from a re-analysis of the deposited data

How the results depend on the processing

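Pseudocount, filter, scaling, trend, replicate block and each library were varied. In bmECs against mpECs, Cdkn1c, Grb10 and Ndn kept direction and call in all 14 alternatives. In the Yap1/Taz comparison the number of genes called, 148, was 1 without a filter, 17 without a trend, 45 with a replicate block and 395 with limma-voom, and it ran from 1 to 293 when 1 library was left out (1 without iΔEC replicate 2 or 3, 14 without control replicate 3, 20 without control replicate 2). The members called there numbered 0 to 1 with single libraries left out (1 without control replicate 1) and 1 with limma-voom, which called Mest. In the Lats2 comparison, 2711 genes became 1389 without a filter and 0 to 2701 with single libraries left out. Without control replicate 1 or 2 limma called 0 (2724 and 2879 genes at an unadjusted p under 0.05), and without iΔEC replicate 2 it called 933. The lone library of such fits is assumed to vary like the others. Members called there were 1 without a filter and 0 to 2 with single libraries left out. Signs turned for Yap1 in the Yap1/Taz libraries (from -0.14 to 0.077 with single libraries left out), for Ndn in Lats2 (from -0.23 to 0.38) and for Peg3 in Lats2 (from -0.011 to 1.32), none of which was called. The cause was not tested beyond the smaller number of libraries and genes in these fits. Same-numbered libraries correlated in their deviations by 0.088 to 0.31 in mpECs and bmECs and by -0.18 to -0.12 for Yap1/Taz. Libraries of different numbers correlated by -0.21 to 0.12 and by -0.15 to 0.24. For Lats2 the values were 0.065 and -0.065, mirror images because each group holds 2 libraries. The labels name no pairs, so the main fits used none, and whether mpECs and bmECs were sorted as pairs is not known. The replicate block changed no call of a member and gave 3072 genes in bmECs against mpECs and 2655 in Lats2. Depth limits Plagl1, Dlk1, H19 and Meg3, with at most 16 reads in any library.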
